A study of Mus musculus with 14 samples.

Results

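RNA from the aortic intima of mice with progerin in vascular smooth muscle cells (VSMC) was compared with RNA from mice whose Lmna alleles give lamin C only. The comparison used 7 of the 14 libraries of the study, chosen by the genotype in their labels, and all genes that passed a count filter, 14269 of the 22430 in the count table. Every mouse was Apoe-/-, the atherosclerosis-prone background, and both groups were homozygous for the LCS allele of Lmna. The lamin C-only control group (4 libraries) had the genotype Apoe-/-LmnaLCS/LCS. The VSMC progerin group (3 libraries) was Apoe-/-LmnaLCS/LCS SM22Cre, which adds a Cre recombinase driven by the SM22α promoter of smooth muscle. Which cells made progerin was not tested. Each library was a pool of 12 to 14 mice of 1 genotype, collected by running lysis reagent through the lumen of the thoracic aorta. The sources used here give neither the age nor the sex of the mice. Neither group had wild-type Lmna. The other 7 libraries, Apoe-/-LmnaG609G/G609G mice with progerin in all cells (3 libraries) and their Apoe-/-Lmna+/+ wild-type controls (4 libraries), entered the same fit and served for the test of a difference between both progerin effects. Those effects share no control library.

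Lamins form a meshwork under the inner nuclear membrane that shapes the nucleus and anchors chromatin. Progerin is a truncated lamin A that keeps its farnesyl lipid, stays attached to that membrane and causes Hutchinson-Gilford progeria, in which arteries stiffen, lose smooth muscle cells and gain matrix. The intima is the endothelium and what lies just beneath it, and in the aorta it rests on elastic layers laid down by smooth muscle cells.

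Levels are given as CPM, the estimated count per 1000000 counts of the effective library size (TMM scaling, the trimmed mean of M-values). The summed levels of marker lists are the exception, as they are per 1000000 counts of the library total without TMM scaling. The TMM factors were 1.02 to 1.03 in the controls and 0.96 to 0.98 in VSMC progerin. The sums are therefore slightly lower in VSMC progerin, relative to the controls, than TMM scaling would give. A gene was called, and is said to have risen or fallen, at an adjusted p under 0.05 (edgeR, quasi-likelihood test, Benjamini-Hochberg adjustment over all genes tested). Fold changes are on the log2 scale with their standard error (SE), VSMC progerin minus lamin C-only control. The pools are separate sets of mice, so p-values measure the spread between pools and not between animals.

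Library totals were 31701265 to 35692385 estimated counts in the controls and 27730536 to 33029122 in VSMC progerin. No pair of pools within a group agreed within counting noise (chi-square per gene of 11.3 to 40.1). Mitochondrially encoded genes took 4.02% ± 0.45 of the counts (SD, n = 4) in the controls and 11.8% ± 0.28 (n = 3) in VSMC progerin, a difference of 7.75 percentage points with no overlap (exact permutation test over 35 arrangements, two-sided, p = 0.0286, the smallest it can give). The share was also higher under ubiquitous progerin, at 7.29% to 8.22% against 4.60% to 5.42% in its wild-type controls, a difference that was not tested. VSMC progerin pool 3 stood apart in erythroid RNA: Hbb-bs, a beta globin, was at 133, 248, 128 and 125 CPM in the control pools and 178, 236 and 3395 CPM in progerin pools 1 to 3. Pecam1, an adhesion molecule that marks endothelial cells, was high in every library, at 11948, 11633, 11048 and 10915 CPM in the controls and 8534, 9018 and 8988 CPM in the progerin pools.

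Of the genes tested, 5988 were called (42%), with 2705 higher (19%) and 3283 lower (23%). Large changes were mostly rises. Of the called genes with an absolute log2 change of at least 1, 1287 were higher (9.02% of the genes tested) and 402 lower (2.82%). The median log2 change of all genes tested was -0.03, and each gene list below is set against these shares and this median. In a bulk lysate fewer cells of a type and less RNA per cell cannot be told apart.

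**Figure D1:**
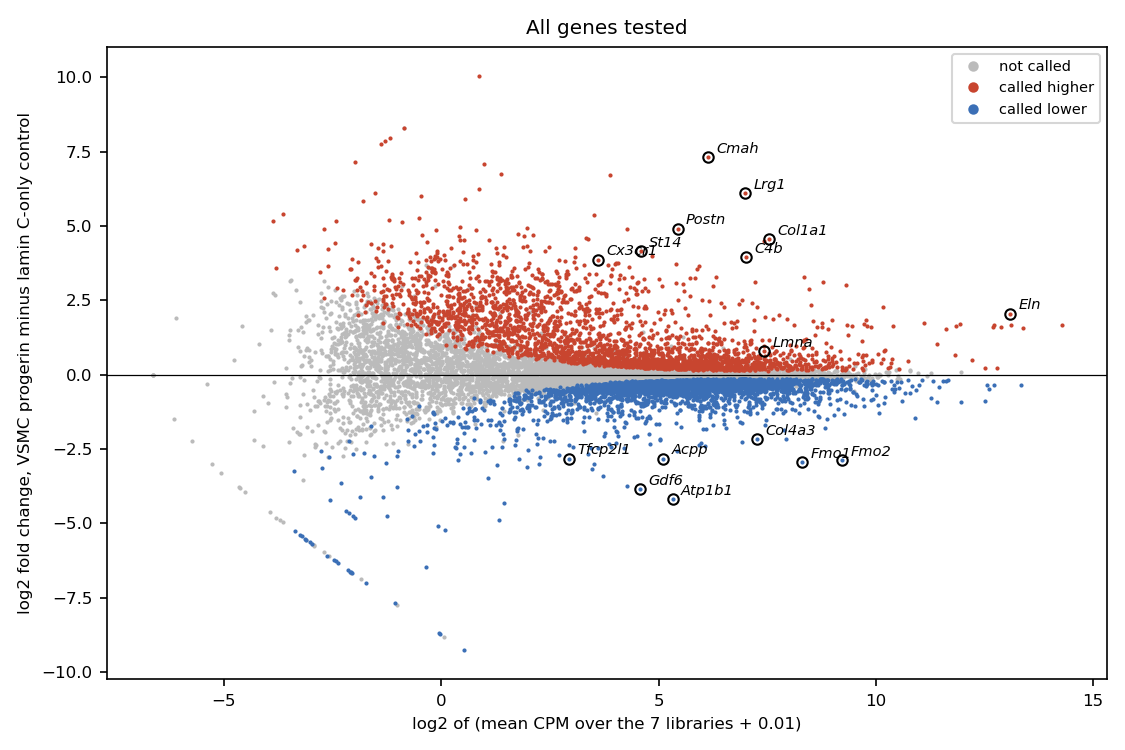
Each point is a gene tested, with the log2 mean level over the 7 libraries on the x axis and on the y axis the log2 fold change of VSMC progerin against lamin C-only control, with called genes in colour and some of the genes described in the text circled. More called genes lie at or above 1 (1287) than at or below -1 (402), and Cmah at 7.31 and Atp1b1 at -4.19 are the largest changes among genes with a mean log2 CPM of 2 or more and no overlap.

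Among called genes with a mean log2 CPM of 2 or more and no overlap between groups, the largest rise was in Cmah, the hydroxylase that converts N-acetylneuraminic acid to N-glycolylneuraminic acid (ENSMUSG00000016756, chromosome 13, 24327404 to 24477377, on GRCm38 as are all positions here). Its level was 0.559, 1.03, 1.49 and 1.01 CPM in control pools 1 to 4 and 211, 169.6 and 108 CPM in progerin pools 1 to 3. Every VSMC progerin pool was far above every control pool, and pool 3 was the lowest of the 3 (log2 change 7.31 ± 0.43, adjusted p = 1.8e-07). Lrg1, a glycoprotein released in inflammation that acts on TGF-beta signalling (ENSMUSG00000037095, chromosome 17, 56119678 to 56122001), was at 3.41, 3.42, 4.45 and 5.7 CPM in the controls and 299, 344 and 230.1 CPM in the progerin pools. The groups were again far apart (6.10 ± 0.23, adjusted p = 2e-09).

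Genes of the matrix and of its turnover were among the other leading rises. Col1a1, which encodes a chain of fibrillar type I collagen (ENSMUSG00000001506, chromosome 11, 94936224 to 94953042), was at 13.4, 11.2, 18.7 and 26.7 CPM in the controls and 470.4, 411 and 361 CPM in the progerin pools, so that all progerin pools lay far above all controls. Postn, the matricellular protein periostin (ENSMUSG00000027750, chromosome 3, 54361109 to 54391037), was at 1.82, 2.27, 4.36 and 4.44 CPM and 113, 96.99 and 81.7 CPM in the same order. Both genes were low in every control pool and high in every progerin pool. Adamts15, a secreted protease that cleaves versican (ENSMUSG00000033453, chromosome 9, 30899155 to 30922452), varied more among the progerin pools, at 63.8, 46.8 and 18.5 CPM, against 1.01, 1.62, 1.22 and 1.96 CPM in the controls. St14, the membrane serine protease matriptase (ENSMUSG00000031995, chromosome 9, 31089402 to 31131853), lies on the same chromosome and was at 2.91, 3.05, 3.28 and 2.42 CPM and 64.4, 59.4 and 32.4 CPM. Pool 3 was the lowest progerin pool for Adamts15 and St14 as it was for Cmah.

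Hp, the hemoglobin scavenger haptoglobin (ENSMUSG00000031722, chromosome 8, 109575128 to 109579172), rose from 16.9 ± 13.7 to 377 ± 32.2 CPM (SD, n = 4 and 3), with control pool 4 the highest control at 36.6 CPM. C4b, a complement component (ENSMUSG00000073418, chromosome 17, 34728380 to 34743882), rose from 17.96 ± 5.9 to 275 ± 16.8 CPM. Fcgr2b, an inhibitory receptor for immunoglobulin G (ENSMUSG00000026656, chromosome 1, 170958617 to 170976547), and Cx3cr1, the fractalkine receptor of monocytes and macrophages (ENSMUSG00000052336, chromosome 9, 119901616 to 120069879), rose by 4.00 ± 0.24 and 3.87 ± 0.30. Adjusted p among these 10 leading rises lay between 2e-09 for Lrg1 and 0.00012 for Hp.

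Among the falls, Atp1b1, a beta subunit of the sodium-potassium ATPase (ENSMUSG00000026576, chromosome 1, 164437109 to 164458355), was at 67.1, 69.0, 62.8 and 69.96 CPM in the controls and 1.102, 4.25 and 5.502 CPM in the progerin pools. The controls lay close together and all progerin pools were far below them (log2 change -4.19 ± 0.30, adjusted p = 8.1e-07). Atp1b3, another beta subunit, rose by 0.73 ± 0.07. Of the 17 ion pump and exchanger genes tested, 6 rose and 4 fell (median 0.10).

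The neighbouring flavin monooxygenase genes Fmo1 (ENSMUSG00000040181, chromosome 1, 162829561 to 162866610) and Fmo2 (ENSMUSG00000040170, chromosome 1, 162874317 to 162898726) fell together. Fmo1 was at 470.3, 474, 443 and 618 CPM in the controls and 49.7, 54.8 and 92.2 CPM in the progerin pools, and Fmo2 at 948, 873, 840.3 and 1151 CPM and 74.9, 97.7 and 215 CPM. Progerin pool 3 kept the highest level of both genes within its group, and neither gene's groups overlapped (log2 changes -2.93 ± 0.24 and -2.88 ± 0.33). Slc26a4, the anion exchanger pendrin (ENSMUSG00000020651, chromosome 12, 31519827 to 31559969), fell from 32.1 ± 6.1 to 2.397 ± 0.64 CPM. The bone morphogenetic protein (BMP) family member Gdf6 (ENSMUSG00000051279, chromosome 4, 9844372 to 9862345), fell from 39.7 ± 14.7 to 2.72 ± 1.5 CPM.

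The membrane metalloproteinase gene Adam33 (ENSMUSG00000027318, chromosome 2, 131050591 to 131063814) fell by 3.42 (log2 scale), and the otogelin-like gene Otogl (ENSMUSG00000091455, chromosome 10, 107760531 to 107912134) by 3.18. Bcan, a chondroitin sulfate proteoglycan (ENSMUSG00000004892, chromosome 3, 87987531 to 88000230), fell by 3.00, Acpp, an acid phosphatase (ENSMUSG00000032561, chromosome 9, 104288251 to 104337748), by 2.82, and Tfcp2l1, a transcription factor of the CP2 family (ENSMUSG00000026380, chromosome 1, 118627945 to 118685168), by 2.82. Adjusted p among the 10 leading falls lay between 3.5e-10 for Otogl and 0.00018 for Bcan.

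**Figure D2:**
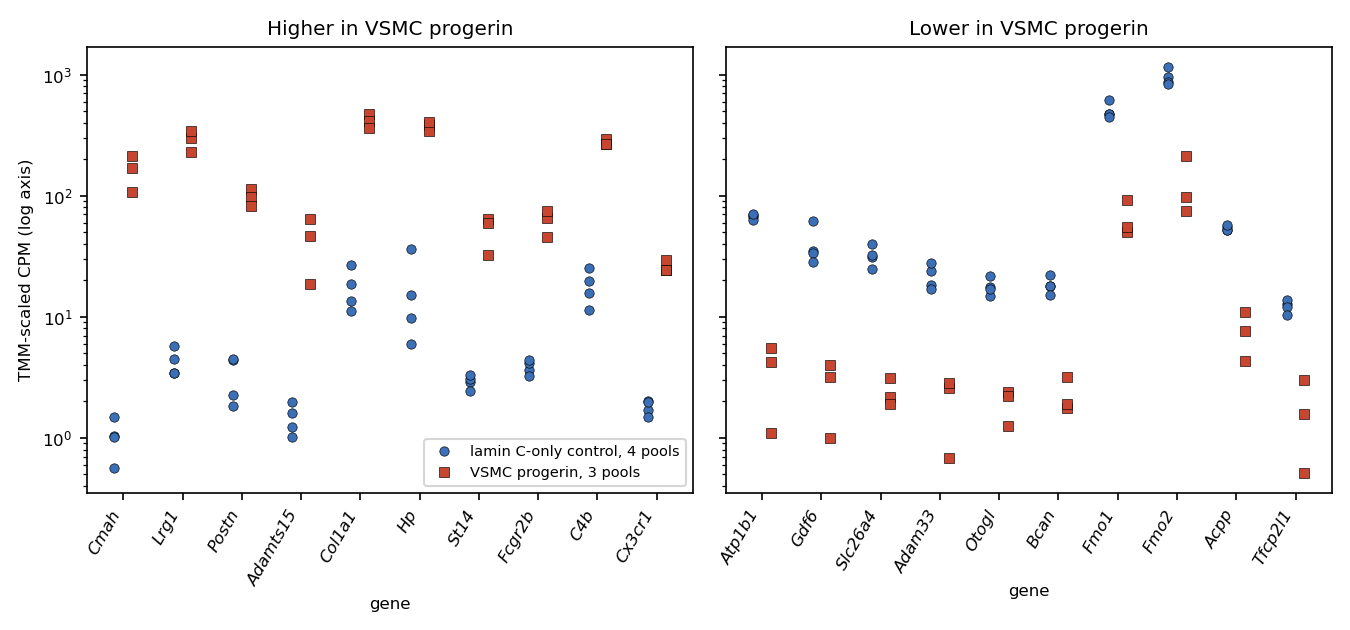
TMM-scaled CPM on a log axis for the 10 genes with the largest rises (left) and the 10 with the largest falls (right) among those with a mean log2 CPM of 2 or more and no overlap between groups, 1 point per pool. The gap between the groups is thus set by the choice of genes, and the progerin pools spread most, in ratio, for Tfcp2l1 and Atp1b1.

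The VSMC progerin effect was tested against the effect of ubiquitous progerin on its own wild-type controls. The difference of effects was called for 44.2% of all genes tested and for 17 of these 20 leading genes. The leading genes were chosen for a large VSMC progerin change, which is part of that difference, so their share cannot be weighed against the 44.2%. St14 had a log2 change of -0.33 ± 0.27 under ubiquitous progerin, a difference of 4.49 ± 0.36 from its rise here (adjusted p = 1e-07). Col1a1 was at 0.35 ± 0.40 there (difference 4.21 ± 0.57), and Cmah at 0.70 ± 0.59 (difference 6.60 ± 0.80). Fmo1 and Fmo2 had the opposite sign there, at 0.55 ± 0.21 and 1.73 ± 0.29. Bcan fell there as well, by 5.30 on the log2 scale. Adamts15, Fcgr2b and Cx3cr1 rose in both comparisons, by 3.23, 3.43 and 3.54 under ubiquitous progerin, and their differences of effects did not pass (adjusted p = 0.077, 0.19 and 0.57). Lrg1, C4b and Hp rose there too, by 3.28, 3.15 and 2.22. Atp1b1, Gdf6, Slc26a4, Acpp, Adam33 and Otogl also fell there, at -1.24, -1.85, -1.75, -1.33, -0.80 and -0.42. These rises and falls were called there and were smaller than here. Postn (1.01 ± 0.55) and Tfcp2l1 (-0.40 ± 0.31) were not called there.

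The Lmna gene, source of every A-type lamin and of progerin (ENSMUSG00000028063, chromosome 3, 88480147 to 88509956), was at 131, 142, 126 and 129 CPM in the controls and 256, 218 and 207 CPM in the progerin pools. All progerin pools lay above all controls (log2 change 0.78 ± 0.07, adjusted p = 1.4e-08). A count per gene does not separate the transcripts for its several products, and these values therefore do not check the alleles. Ubiquitous progerin gave -0.02 ± 0.07 for the same gene, and the difference of effects was 0.80 ± 0.10 (adjusted p = 1.1e-06). Apoe, disrupted in all mice (ENSMUSG00000002985, chromosome 7, 19696109 to 19699188), was at 72.1, 61.7, 64.1 and 58.8 CPM and 59.7, 44.5 and 50.4 CPM, groups that overlap, and the count does not show which part of the gene the reads came from. Its fall of 0.32 (adjusted p = 0.0057) was not called without VSMC progerin pool 2 (-0.23, adjusted p = 0.052). Tagln, the SM22α gene whose promoter drives the Cre (ENSMUSG00000032085, chromosome 9, 45929619 to 45936058), was at 244, 208, 165 and 242 CPM and 137, 191 and 195 CPM and was not called (adjusted p = 0.28).

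Of the 18 genes of the nuclear lamina and of lamin processing, 9 fell and 3 rose (median -0.25, against -0.03 for all genes). Sun2, which links the nuclear envelope to the cytoskeleton, fell from 226 ± 5.8 to 145 ± 6.7 CPM. Lbr, the lamin B receptor, fell from 118 ± 6.3 to 76.98 ± 1.0 CPM, and Tmpo, which encodes the LAP2 proteins, from 402 ± 12.3 to 264 ± 13.4 CPM. These falls were of like size, between 0.61 and 0.64 on the log2 scale, with no overlap between groups. Besides Lmna, the rises were in Syne1, a nesprin (0.60 ± 0.09), and Lmnb2, lamin B2 (0.56 ± 0.12). Zmpste24, the protease that cleaves farnesylated prelamin A, was not called (-0.10 ± 0.06, adjusted p = 0.19) but was with VSMC progerin pool 2 left out (-0.18, adjusted p = 0.040).

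Collagens were set apart by chain. Of the 9 fibrillar collagen genes tested, 6 rose and the other 3 did not pass (median 1.59). Col3a1 (ENSMUSG00000026043, chromosome 1, 45311538 to 45349706) and Col5a2 (ENSMUSG00000026042, chromosome 1, 45374321 to 45503282), which lie side by side on chromosome 1, were at 59.4, 63.4, 62.7 and 89.3 and at 502, 486, 540.2 and 499 CPM in the controls. In VSMC progerin they were at 702, 638 and 672 and at 1539, 1552 and 1470.5 CPM. The rise was larger for Col3a1 (3.29 ± 0.23) than for Col5a2 (1.59 ± 0.06), and both had a negative change under ubiquitous progerin (-0.58 and -0.82). Col1a2, the partner of Col1a1 in type I collagen, rose from 203 ± 22.96 to 395 ± 4.9 CPM, a log2 change of 0.96 ± 0.10 where that of Col1a1 was 4.57 ± 0.41.

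The 15 basement membrane and other collagen genes were all called, 11 higher and 4 lower (median 0.98). The chains of collagen IV, the network-forming collagen of basement membranes, parted by pair. Col4a1 (0.48 ± 0.06; chosen after its values were seen) and Col4a2 (0.76 ± 0.07) rose, whereas Col4a3 (ENSMUSG00000079465, chromosome 1, 82586921 to 82722059) and Col4a4 (ENSMUSG00000067158, chromosome 1, 82448423 to 82586849) fell. Col4a3 was at 249, 221, 224 and 224 CPM in the controls and 45.5, 48.9 and 58.7 CPM in the progerin pools. Col4a4 was at 379, 361, 365 and 354 CPM and 67.6, 73.2 and 104 CPM. Both fell by nearly the same amount (-2.17 ± 0.10 and -2.16 ± 0.13), progerin pool 3 was the highest of its group for both, and no pools overlapped. Both also had negative changes under ubiquitous progerin (-1.75 and -1.81), where Col4a1 and Col4a2 had them too (-0.88 and -0.37). Col4a6 fell by 0.81. Col18a1, the source of endostatin, rose from 184 ± 11.8 to 363 ± 8.7 CPM.

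Col4a3 and Col4a4 are transcribed away from each other. The 71 bases between their annotated starts (chr1:82586850-82586920, GRCm38.p6, from RefSeq's promoter table) are shown because both genes fell together. The run is on the minus strand, so that it reads toward the Col4a4 start.
Col4a4 and Col4a3: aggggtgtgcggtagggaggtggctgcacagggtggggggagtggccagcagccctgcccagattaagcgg
No exon in the GENCODE M21 annotation overlaps it. What binds there was not tested.

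Laminins, the other network of basement membranes, also parted by chain. Of the 14 laminin and linker genes, 8 rose and 1, Lamb2, fell (median 0.39). Lamb1 was at 11.6, 9.57, 11.1 and 13.1 CPM in the controls and 97.3, 94.4 and 91.8 CPM in the progerin pools, where Lamb2 was at 1038, 1025, 1005 and 1003 CPM and 576, 561 and 605 CPM. The beta 1 chain was thus 3.06 higher and the beta 2 chain 0.81 lower on the log2 scale, each with tight pools. Lamb3, the beta chain of epithelial laminin-332, rose from 0.361 ± 0.093 to 9.53 ± 0.43 CPM, and ubiquitous progerin gave -0.16 ± 0.37 for it (difference 4.86 ± 0.50, adjusted p = 1.6e-07).

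Genes for collagen folding and cross-linking rose in 13 and fell in 3 of 19 cases (median 0.71). The collagen chaperone Serpinh1 rose from 198 ± 7.6 to 353 ± 21.02 CPM, the lysyl hydroxylase Plod1 from 95.8 ± 1.8 to 162 ± 5.2 CPM, and P4ha3, a prolyl hydroxylase subunit, from 2.71 ± 0.93 to 32.03 ± 3.3 CPM. Loxl4, a lysyl oxidase-like enzyme, fell from 19.6 ± 2.9 to 8.62 ± 2.5 CPM.

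Elastic fibre genes rose in 10 and fell in 3 of 16 (median 0.74). Eln, which encodes tropoelastin, was at 3043, 4142, 3955 and 3720.3 CPM in the control pools and 14997, 15371 and 15880.2 CPM in the progerin pools. The progerin pools were within a narrow band far above the controls (log2 change 2.05 ± 0.13, adjusted p = 5.1e-08), and under ubiquitous progerin the change was -0.70 ± 0.13 (difference 2.75 ± 0.19). Fbln5, which guides elastin onto microfibrils, rose from 431 ± 26.3 to 2101 ± 87.4 CPM. The microfibril protein Fbn1 and the elastic fibre protein Emilin1 rose by 1.07 ± 0.06 and 1.17 ± 0.08. Efemp1, another fibulin, fell from 120.3 ± 5.2 to 48.4 ± 6.1 CPM, Fbln2 fell from 2067 ± 72.1 to 1351 ± 60.9 CPM, and Ltbp4, a TGF-beta binding protein of the fibre, fell by 0.36.

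**Figure D3:**
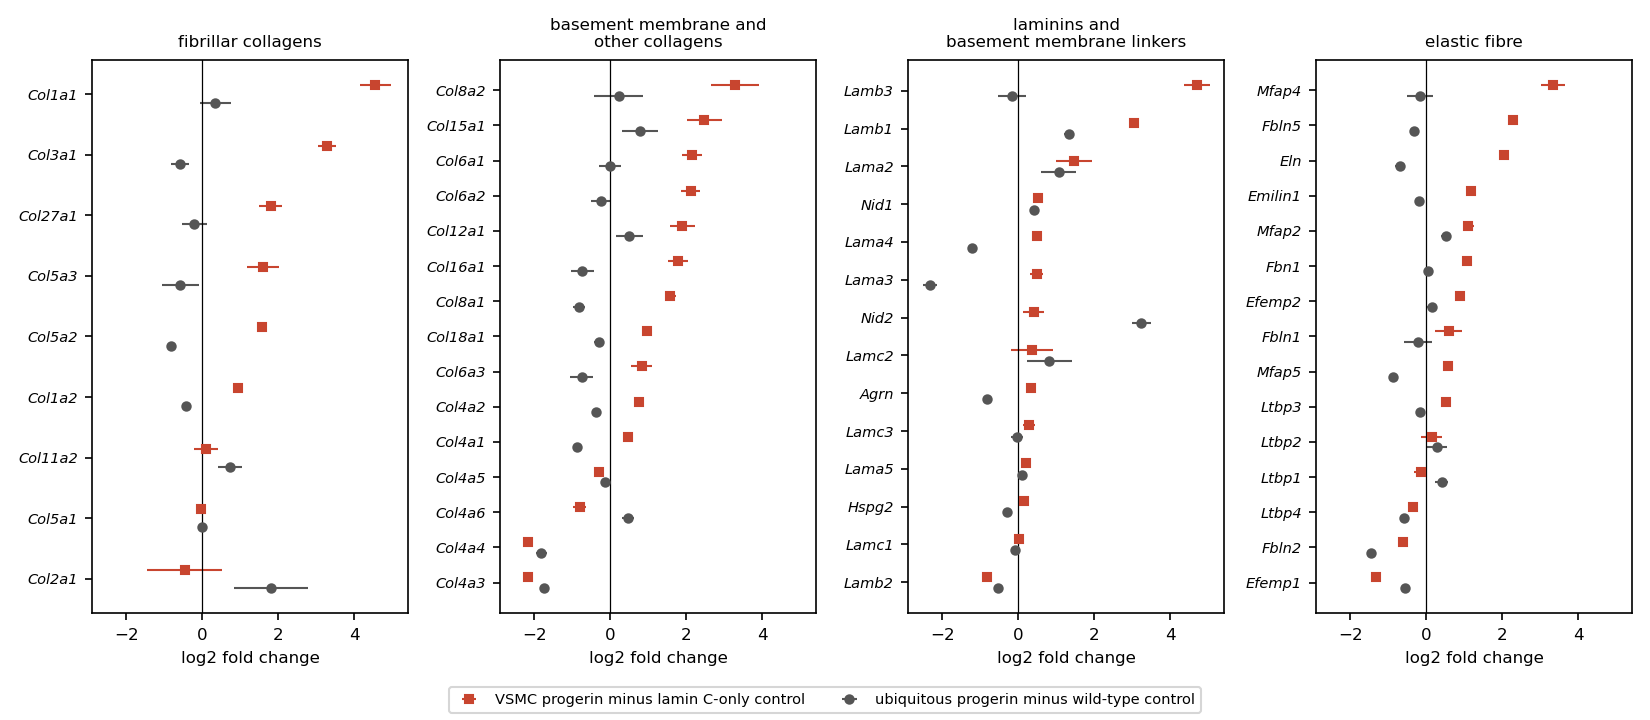
Log2 fold changes with SE bars for the collagen, laminin and elastic fibre genes tested (Fbn2, not detected in any control pool, is left out), VSMC progerin against lamin C-only control as squares and ubiquitous progerin against wild-type control as circles. Of the genes drawn most squares lie to the right of 0 and of the circle of the same gene, while Col4a3 and Col4a4 lie left of 0 in both comparisons.

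Among 16 matricellular proteins, which signal to cells from the matrix, 7 rose and 1 fell (median 0.43). Sparc, a collagen-binding glycoprotein, was at 1090.4, 1121, 1057 and 1148 CPM in the controls and 3498, 3772 and 3697 CPM in the progerin pools, without overlap (1.73 ± 0.05). Thbs2, thrombospondin 2, rose from 2.998 ± 0.75 to 24.2 ± 3.1 CPM, whereas Thbs1 was at 1349.8, 1243, 1188 and 1686 CPM and 1324, 1536 and 1846 CPM and was not called (adjusted p = 0.52). Fn1, fibronectin, rose by 0.65 ± 0.07. The member that fell was Ccn2, connective tissue growth factor, from 713 ± 147 to 275 ± 77.9 CPM.

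The 19 proteoglycan genes rose in 8 and fell in 4 (median 0.23). The heparan sulfate carriers Sdc1 and Sdc2 moved apart: Sdc1 rose from 117 ± 9.5 to 425 ± 27.8 CPM and Sdc2 fell from 99.8 ± 7.4 to 49.1 ± 5.4 CPM. Dcn, decorin, was at 109, 125, 126 and 296 CPM in the controls and 123, 127 and 151 CPM in the progerin pools, and was not called (adjusted p = 0.5). Control pool 4 was far above the other controls for Dcn, and the sign of the change turned without it (0.15, adjusted p = 0.43).

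Matrix proteases and their inhibitors rose in 17 and fell in 2 of 21 (median 1.63). The gelatinase Mmp2 was at 201, 212, 225 and 222 CPM in the controls and 635, 652 and 668 CPM in the progerin pools. Mmp14, the membrane protease that activates it, rose from 35.8 ± 5.0 to 111 ± 8.5 CPM, and the collagenase Mmp13 from 0.933 ± 0.24 to 22.4 ± 4.0 CPM. Of the inhibitors, Timp1 rose by 2.07 ± 0.18 and Timp3 fell by 0.52. Mmp13 also rose under ubiquitous progerin (4.45 ± 0.27), and the difference of effects did not pass (0.13 ± 0.40, adjusted p = 0.83).

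The 22 TGF-beta signalling genes were split, 10 rising and 8 falling (5 falling without VSMC progerin pool 1), at a median of -0.01. The ligand Tgfb1 rose from 88.6 ± 8.3 to 145 ± 12.2 CPM and the receptor Tgfbr2 by 0.43 ± 0.06. The signal transducer Smad3 fell by 0.39 and the inhibitory Smad7 by 0.32. Pmepa1, a target and feedback inhibitor of the pathway, was at 109.6, 111, 116 and 97.2 CPM and 232, 258 and 243 CPM, with all progerin pools above all controls. Its change was 1.17 ± 0.07 here and -1.28 ± 0.07 under ubiquitous progerin, a difference of 2.45 ± 0.10 (adjusted p = 4e-13).

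BMP signalling genes were mostly lower: 13 of 22 fell and 5 rose (3 without control pool 2 or without VSMC progerin pool 1), with a median of -0.45. The type I receptor Acvr1 fell from 173 ± 4.7 to 80.6 ± 8.8 CPM. Smad9, a transducer of BMP signals, fell from 6.97 ± 1.0 to 1.37 ± 0.23 CPM, the inhibitory Smad6 from 192 ± 8.8 to 103 ± 19.9 CPM, and Id2, a target gene, from 67.2 ± 3.2 to 32.2 ± 1.1 CPM. Id2 and Smad9 had positive changes under ubiquitous progerin (0.85 and 0.95), and the differences were -1.91 ± 0.13 and -3.29 ± 0.27. The rises were in genes that include the secreted protease Htra1 (1.12 ± 0.06) and the BMP-binding protein Bmper (2.80 ± 0.55).

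Of 20 regulators and markers of mesenchymal transition, 11 rose and 5 fell (median 0.62). The transcription factor Twist1 was at 126, 133, 116 and 137 CPM in the controls and 40.1, 40.8 and 41.8 CPM in the progerin pools, without overlap, and fell by 1.65. It fell under ubiquitous progerin too (-1.60 ± 0.08), and the difference of effects did not pass (-0.04 ± 0.11, adjusted p = 0.79). Tcf4, another basic helix-loop-helix factor, rose by 0.64 ± 0.09. S100a4, a calcium-binding protein of fibroblasts and leukocytes, rose by 0.92 ± 0.11, and Thy1, a surface marker of fibroblasts, rose from 1.75 ± 0.95 to 7.74 ± 0.77 CPM. The intermediate filament gene Vim fell by 0.20, the platelet-derived growth factor (PDGF) receptor Pdgfrb by 0.71, and Acta2, smooth muscle actin, by 1.00. Fibroblast and macrophage markers rose in the same pools (values below), and their part in these changes was not tested.

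**Figure D4:**
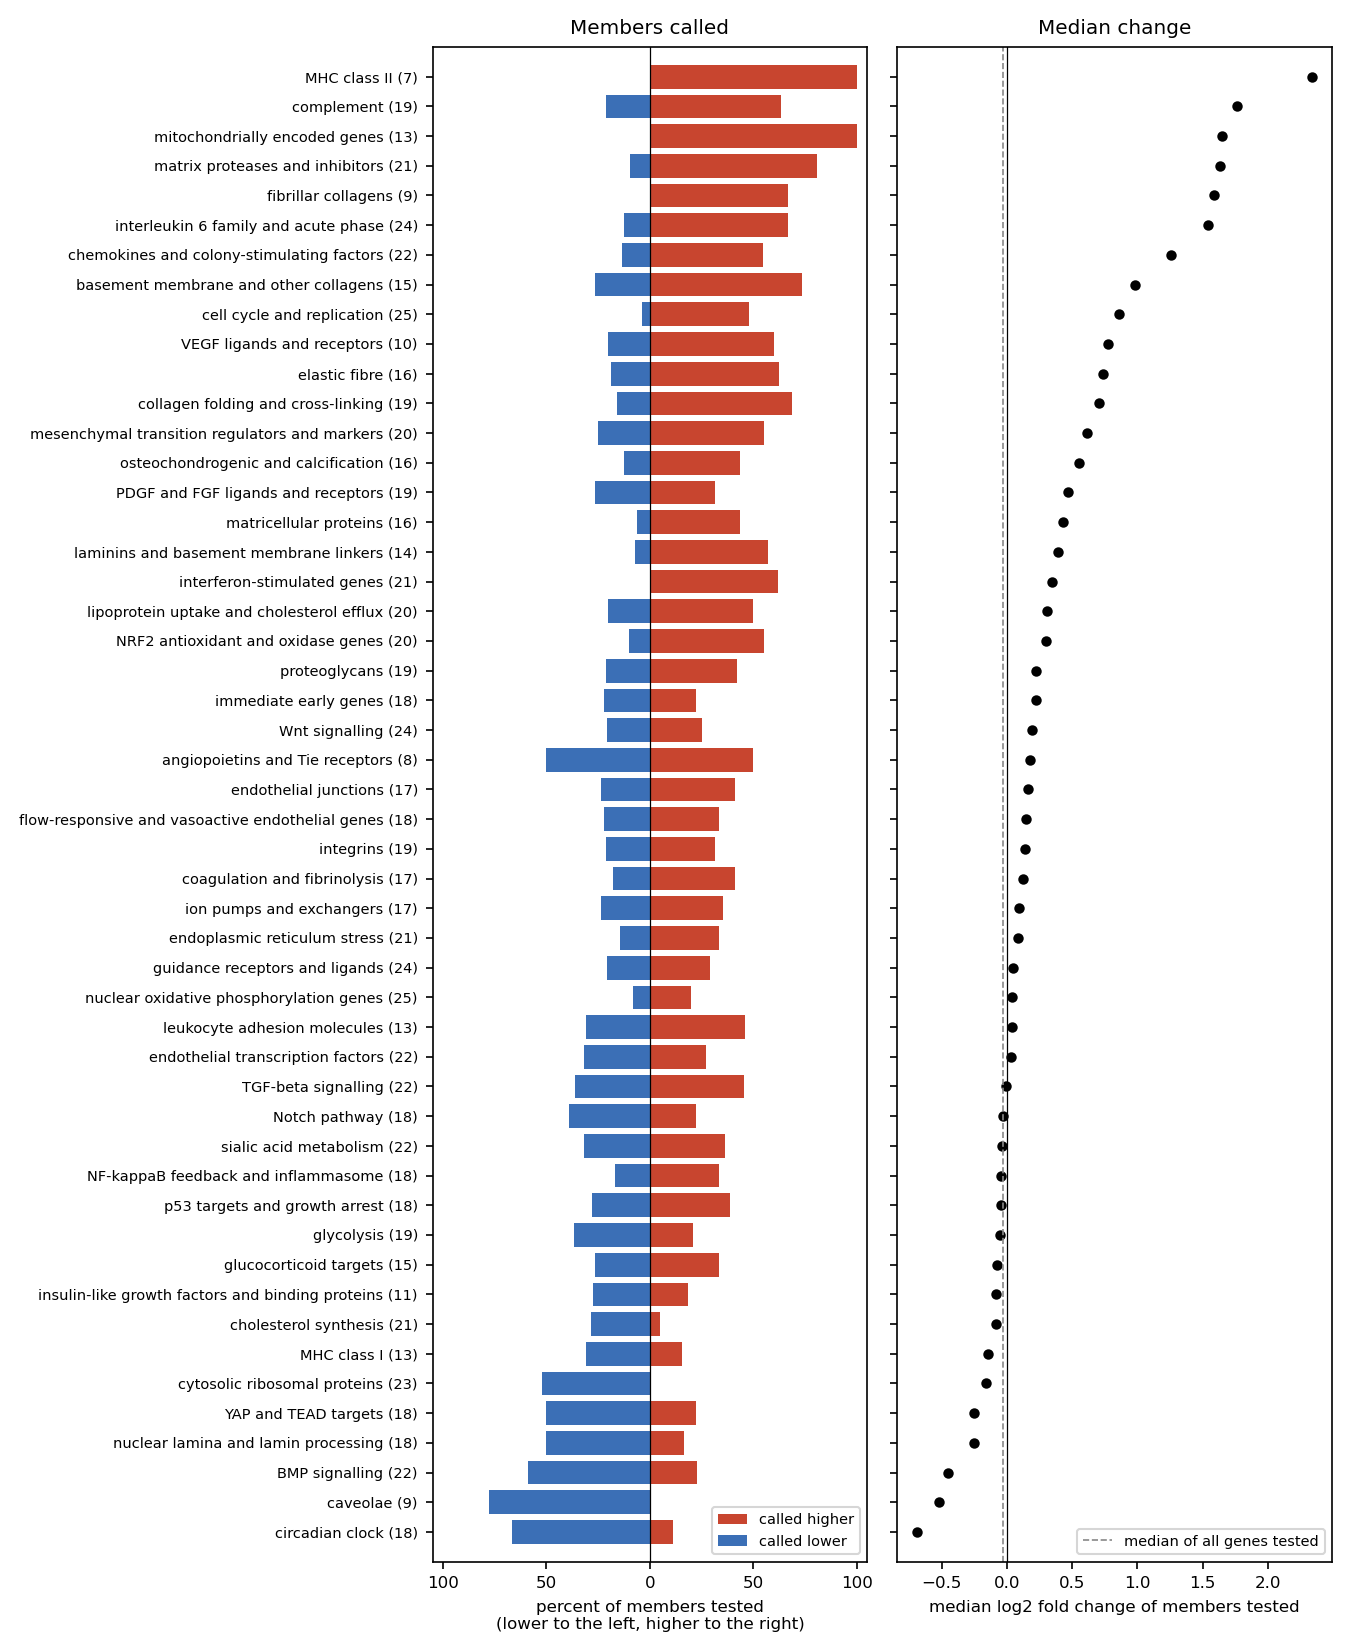
For the 50 pathway lists, the share of members tested that were called higher or lower (left, number tested in brackets) and the median log2 fold change (right), with the median of all genes tested as a dashed line. The lists run from a median of 2.34 for MHC class II to -0.69 for the circadian clock.

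Of 16 endothelial identity genes, 5 rose and 8 fell (5 fell without VSMC progerin pool 1), at a median of -0.18. Clec14a, a vascular lectin, fell from 734 ± 30.6 to 328 ± 23.01 CPM, the phosphatase Ptprb from 4993 ± 376 to 2655 ± 218 CPM, and Pecam1 by 0.36. The receptor tyrosine kinase Tie1 rose from 893 ± 45.1 to 1575 ± 74.8 CPM, the VEGF receptor Kdr from 7.73 ± 0.68 to 13.04 ± 0.74 CPM, the tight junction protein Cldn5 by 0.53 ± 0.14 and von Willebrand factor, Vwf, by 0.22 ± 0.05. Cdh5, the cadherin of endothelial junctions, was at 1150.3, 1057, 1084 and 1008 CPM in the controls and 1035, 1049.8 and 1090.5 CPM in the progerin pools, groups that overlap. Its change of -0.02 ± 0.06 was not called (adjusted p = 0.79) and was above 0 with RLE scaling and DESeq2. The summed level of the endothelial list was 30058 to 32519 CPM in the controls and 25733 to 26268 CPM in the progerin pools. Pecam1 and Ptprb, which both fell, are a large part of this sum, and no sum was made without them. The sum is per library total, of which mitochondrially encoded genes took more in VSMC progerin. It therefore does not show a fall of the list as a whole.

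Transcription factors of the endothelium rose in 6 and fell in 7 of 22 (median 0.03). Ets1 rose from 28.8 ± 2.8 to 76.4 ± 6.7 CPM, and Gata2 fell from 323 ± 11.97 to 210.1 ± 14.7 CPM, with a change of 0.55 under ubiquitous progerin. Junction genes rose in 7 and fell in 4 of 17 (median 0.17), among them the connexin Gja4 (0.66 ± 0.07) and the tight junction protein Ocln (-0.65 ± 0.09).

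Caveolae, the flask-shaped membrane pits of endothelial cells, showed falls in 7 of 9 genes, and the other 2 did not pass (median -0.52). Cav1, caveolin-1, was at 2576, 2584, 2640.5 and 2656 CPM in the control pools and 959.8, 929 and 984 CPM in the progerin pools. The pools of each group lay close together and the groups were far apart (-1.45 ± 0.05, adjusted p = 9.7e-14). Cavin2, a coat protein, and Cav2 fell by 1.04 and 0.75. Cav1 also fell under ubiquitous progerin (-1.38 ± 0.05), and the difference of effects did not pass (-0.07 ± 0.07, adjusted p = 0.45).

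Of 10 VEGF ligands and receptors, 6 rose and 2 fell (median 0.78). Only 1 fell with RLE scaling, with DESeq2, with the 7 libraries fitted alone, or without control pool 1, 3 or 4 or VSMC progerin pool 2. Flt1, the decoy-like VEGF receptor 1, was at 59.0, 53.9, 56.1 and 45.2 CPM in the controls and 208, 185 and 140.4 CPM in the progerin pools, and Vegfa rose from 233 ± 28.00 to 447 ± 23.1 CPM. The co-receptor Nrp1 fell by 0.65. Angiopoietin and Tie genes, 8 in all, were divided evenly, 4 higher and 4 lower (median 0.18).

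Notch pathway genes rose in 4 and fell in 7 of 18 (median -0.03). The ligand Dll4 rose from 39.7 ± 1.3 to 83.7 ± 8.2 CPM, and the receptor Notch1 was not called (-0.11 ± 0.07, adjusted p = 0.24). Of the target genes, Hes1 rose by 0.72 ± 0.16 and Nrarp fell by 1.00. Efnb2, an arterial ephrin, fell from 488 ± 14.3 to 257 ± 22.8 CPM. Guidance receptors and ligands rose in 7 and fell in 5 of 24 (median 0.05), and the semaphorin Sema3g and the receptor Plxnd1 rose by 1.79 ± 0.19 and 0.94 ± 0.08. Under ubiquitous progerin both had negative changes (-1.32 and -0.68; differences 3.11 ± 0.27 and 1.62 ± 0.11).

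Flow-responsive and vasoactive genes rose in 6 and fell in 4 of 18 (median 0.15). Among the falls, the cyclooxygenase Ptgs1 went from 386 ± 20.5 to 230.4 ± 15.8 CPM and prostacyclin synthase, Ptgis, from 454 ± 31.8 to 283 ± 34.9 CPM. Endothelial nitric oxide synthase, Nos3, rose by 0.39 ± 0.07, and endothelin-1, Edn1, fell by 0.82. Nppc, which encodes C-type natriuretic peptide, was at 0, 0.124, 0 and 0 CPM in the controls and 8.23, 3.94 and 1.399 CPM in the progerin pools (adjusted p = 9.5e-06), and no fold is given for a gene so near 0 in the controls. Ace was not called (0.10 ± 0.06) but was without VSMC progerin pool 1 (0.20, adjusted p = 0.019).

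Coagulation and fibrinolysis genes rose in 7 and fell in 3 of 17 (median 0.12). The plasminogen activator Plau rose by 1.32 ± 0.17, and Procr, the endothelial protein C receptor, fell by 0.45. Leukocyte adhesion molecules rose in 6 and fell in 4 of 13 (median 0.04). Mcam rose from 216 ± 12.4 to 499.5 ± 47.7 CPM and Selp, P-selectin, by 0.45 ± 0.06, while Vcam1 and Icam1, which bind leukocyte integrins, fell by 0.27 and 0.31.

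Smooth muscle contractile genes were lower in the intima of mice with progerin in smooth muscle: 9 of 17 fell, and 1, Cald1, rose (2 rose under RLE scaling, voom, the deposited log2 values, the stricter filter, DESeq2, without the mitochondrial genes or without control pool 4). The median was -0.76. Myh11, smooth muscle myosin, was at 13.1, 14.1, 13.04 and 16.7 CPM in the controls and 4.85, 2.78 and 4.01 CPM in the progerin pools, without overlap (-1.88 ± 0.41, adjusted p = 0.0028). The kinase Mylk fell from 61.01 ± 4.1 to 31.6 ± 3.7 CPM, the integrin Itga8 from 4.92 ± 0.95 to 1.06 ± 0.38 CPM, and the transcription factor Srf by 0.58. Cald1, caldesmon, rose from 212 ± 3.5 to 461 ± 48.3 CPM. Cells other than smooth muscle also make caldesmon, and which cells made the RNA of the members that fell was not tested. The summed level of the list overlapped between groups, at 1076 to 1298 CPM in the controls and 1074 to 1165 CPM in the progerin pools. Cald1 is a large part of that sum and rose where 9 members fell. No sum was made without it, so the overlap does not speak for the other members.

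Adventitial fibroblast markers rose in 8 and fell in 2 of 12 (median 1.23, range -0.95 to 2.21), and Dcn was 1 of the 2 not called. The summed level of the list was 1529 to 1945 CPM in the controls and 1881 to 2041 CPM in the progerin pools. Control pool 4 had the 1945 CPM that overlaps the progerin pools. The overlap does not hold once the sums are divided by the TMM factors (1.03 for control pool 4 and 0.956 for progerin pool 3). Pi16, whose levels follow, weighs heavily in the sum of the progerin pools. No sum was made without it, so the sum does not show a rise of the list as a whole. Pi16, a marker of adventitial stem-like fibroblasts, rose from 229.9 ± 7.7 to 698 ± 86.02 CPM, and the stromal marker Cd248 from 3.91 ± 1.8 to 18.1 ± 3.8 CPM. Both had negative changes under ubiquitous progerin (-1.81 and -1.79).

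YAP and TEAD targets, genes that respond to stretch and adhesion, fell in 9 and rose in 4 of 18 (median -0.25). Amotl2 fell from 314 ± 13.3 to 129 ± 28.4 CPM and Ptpn14 from 625 ± 35.5 to 316 ± 28.5 CPM, while the receptor kinase Axl rose by 1.23 ± 0.12. Integrins rose in 6 and fell in 4 of 19 (median 0.14), with the laminin receptor Itga3 falling by 1.00 and the vitronectin receptor chain Itgb3 rising by 0.77 ± 0.13. Immediate early genes rose in 4 and fell in 4 of 18 (median 0.23). The AP-1 subunits parted, as Jun fell from 410.2 ± 13.6 to 214 ± 21.5 CPM and Junb rose from 52.3 ± 3.6 to 109 ± 6.7 CPM.

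Macrophage markers rose in 15 of 16 and fell in 1 (median 2.91), and their summed level was 224 to 412 CPM in the controls and 993 to 1166 CPM in the progerin pools. Itgam, the CD11b integrin (ENSMUSG00000030786, chromosome 7, 128062640 to 128118491), was at 1.15, 1.18, 2.196 and 1.93 CPM in the controls and 22.04, 20.9 and 19.02 CPM in the progerin pools, far apart. Csf1r, the receptor that macrophages need to survive, rose from 7.19 ± 1.5 to 66.1 ± 5.0 CPM, Adgre1, the F4/80 antigen, from 2.34 ± 0.5 to 24.5 ± 3.1 CPM, and the mannose receptor Mrc1 from 2.33 ± 0.6 to 30.2 ± 8.2 CPM. Mertk, a receptor for dying cells, was the member that fell, by 0.56. The rise of Itgam was smaller than under ubiquitous progerin (4.90; difference -1.24 ± 0.29, adjusted p = 0.0023), and for Adgre1 (3.52 there) the difference of effects did not pass (-0.13 ± 0.36, adjusted p = 0.8).

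Foamy macrophage genes rose in 8 of 12, and the other 4 did not pass (median 1.31). The macrophage elastase Mmp12 was at 8.52, 28.2, 22.2 and 7.51 CPM in the controls and 181, 145 and 164 CPM in the progerin pools. Trem2, a lipid receptor of foamy macrophages, was at 1.48, 8.08, 5.21 and 1.93 CPM and 21.2, 18.9 and 15.2 CPM. The controls spread widely for both genes, with pools 2 and 3 above pools 1 and 4, yet every progerin pool was higher (3.30 ± 0.45 and 2.15 ± 0.50).

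Chemokines and colony-stimulating factors rose in 12 and fell in 3 of 22 (median 1.26). Ccl8, an attractant of monocytes, rose from 0.624 ± 0.44 to 25.7 ± 4.7 CPM, and Ccl9 from 3.43 ± 1.8 to 42.2 ± 7.9 CPM. The falls included Csf1, the growth factor of macrophages, from 120.4 ± 7.4 to 73.4 ± 10.1 CPM, and Ackr3, a scavenging receptor for CXCL12, from 453 ± 35.3 to 201 ± 15.2 CPM. Thus the ligand Csf1 was lower where its receptor Csf1r was higher. Complement genes rose in 12 and fell in 4 of 19 (median 1.76). Cfb, factor B of the alternative pathway, rose from 21.2 ± 3.5 to 121 ± 20.01 CPM. Ubiquitous progerin gave 0.51 for Cfb (difference 2.00 ± 0.23).

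Interleukin 6 family and acute phase genes rose in 16 and fell in 3 of 24 (median 1.54). Socs3, a feedback inhibitor of the pathway, was at 10.5, 9.85, 11.1 and 9.99 CPM in the controls and 32.6, 35.4 and 30.6 CPM in the progerin pools, without overlap. Its shared receptor Il6st, gp130, fell from 1204 ± 59.1 to 683 ± 33.8 CPM, and the leukemia inhibitory factor receptor, Lifr, from 185 ± 9.2 to 76.9 ± 10.4 CPM. Hp and Lrg1, both acute phase genes, are among the leading rises above. NF-kappaB feedback and inflammasome genes rose in 6 and fell in 3 of 18 (median -0.04), with the inflammasome sensor Nlrp3 rising from 0.224 ± 0.16 to 3.56 ± 1.0 CPM.

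Of 21 interferon-stimulated genes, 13 rose and the other 8 did not pass (median 0.35; 1 fell with voom, without a filter, and without control pool 4 or VSMC progerin pool 1). Oas1a, which senses double-stranded RNA, was at 9.58, 10.6, 11.9 and 12.5 CPM in the controls and 24.7, 21.6 and 20.3 CPM in the progerin pools. Rsad2, the antiviral protein viperin, was at 5.22, 4.23, 8.11 and 5.88 CPM and 31.4, 14.7 and 33.3 CPM, and Isg15, a ubiquitin-like protein chosen after its values were seen, at 11.4, 12.9, 14.04 and 9.56 CPM and 25.4, 25.5 and 28.8 CPM. No groups overlapped, and progerin pool 2 was lowest for Rsad2. Oas2 rose from 1.33 ± 0.86 to 11.1 ± 3.1 CPM. Oas1a and Isg15 had negative changes under ubiquitous progerin (-0.56 and -0.70; differences 1.55 ± 0.21 and 1.85 ± 0.37).

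The promoters of Oas1a, Isg15 and Rsad2 hold the core letters of the interferon-stimulated response element and are shown for that reason. In RefSeq's promoter table (GRCm38.p6), the 250 bases before the start were searched on both strands for GAAANNGAAA, whose letters do not contain the other motif searched. Of the 21 interferon-stimulated genes, 17 had a promoter in the table and 9 of those held it, against 3.46% of the 27025 genes in the table, and among the 9 called genes with a promoter 6 held it. Bases within a match are in capitals, on the strand of the gene or as the reverse complement, and matches that overlap each other were counted separately.
Oas1a (chr5:120907526-120907590, minus strand): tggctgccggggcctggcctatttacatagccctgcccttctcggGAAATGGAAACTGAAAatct
Isg15 (chr4:156200830-156200941, minus strand): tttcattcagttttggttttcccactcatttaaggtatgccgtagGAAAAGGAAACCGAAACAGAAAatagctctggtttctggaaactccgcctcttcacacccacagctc
Rsad2 (chr12:26456518-26456617, minus strand): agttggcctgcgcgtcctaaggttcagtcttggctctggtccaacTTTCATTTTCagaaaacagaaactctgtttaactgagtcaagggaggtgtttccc
Oas1a holds 2 overlapping matches just before the transcript start, Isg15 holds 3 that overlap, and Rsad2 holds 1. A match describes the letters and does not show binding.

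MHC class II genes, which present antigen on macrophages, dendritic cells and B cells, rose in all 7 tested (median 2.34). H2-Ab1 was at 34.1, 30.2, 59.5 and 39.7 CPM in the controls and 202, 244 and 198 CPM in the progerin pools. MHC class I and peptide-loading genes rose in 2 and fell in 4 of 13 (median -0.14), with H2-Q4 at -0.31 ± 0.08. Both rises were lost without a filter or without control pool 1, 3 or 4 or VSMC progerin pool 2 or 3, and 1 was lost without control pool 2. The number that fell was 2 with RLE scaling, with the 7 libraries alone, without the mitochondrial genes, or without control pool 2 or 3 or VSMC progerin pool 1 or 3.

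Markers of other cell types also differed between the groups. B lymphocyte markers rose in 3 of 4 tested (summed level 2.87 to 4.79 CPM in the controls and 15.98 to 27.9 CPM in the progerin pools), with Ighm, the immunoglobulin heavy chain, going from 2.03 ± 0.69 to 16.8 ± 5.7 CPM. Dendritic cell markers rose in 3 of 5 (147 to 311 and 653 to 775 CPM). Their list includes the invariant chain of MHC class II, which macrophages and B cells also make, so its sum is not particular to dendritic cells. T lymphocyte markers rose in 2 of 6 (2.78 to 5.66 and 7.72 to 11.2 CPM) and neutrophil markers in 2 of 5 (0.869 to 2.71 and 3.43 to 5.41 CPM). Mast cell markers rose in 3 of 5 (2.49 to 6.21 and 11.8 to 14.8 CPM) and platelet markers in 2 of 5 (9.498 to 22.9 and 18.2 to 47.2 CPM, sums that overlap). Several of these counts rest on single pools: the dendritic cell count was 1 without control pool 1 or 3 or VSMC progerin pool 1 or 2, and the T lymphocyte count 1 without control pool 1 or 2. The neutrophil count was 1 without control pool 1 or 3 or VSMC progerin pool 1 or 2, and the mast cell count 5 without control pool 4. With the stricter filter, which the progerin pools alone can meet, only 1 neutrophil marker was tested, and it rose. With the 7 libraries fitted alone, 1 T lymphocyte, 1 neutrophil and 1 platelet marker rose. Schwann cell markers rose in 2 of 3 (14.3 to 18.98 and 35.9 to 48.1 CPM) and lymphatic endothelial markers in 3 of 6 (77.9 to 92.3 and 133 to 151 CPM).

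Striated muscle markers rose in 4 of 7 at summed levels of 1.58 to 2.4 CPM in the controls and 4.81 to 14.4 CPM in the progerin pools (2 rose without VSMC progerin pool 3 and with the deposited values, which hold 3 of them). Only 1 passed the stricter filter, and it rose. The progerin pools alone can meet that filter, so this rise adds no support. The 6 mesothelial markers had too few counts to be tested, and without a filter 1 of the 5 that could then be tested rose. Erythroid markers rose in 5 of 5, and this rested on VSMC progerin pool 3. Hba-a1, an alpha globin, was at 141, 141 and 2382 CPM in progerin pools 1 to 3 against 104, 152, 75.7 and 80.3 CPM in the controls, and Alas2, the erythroid heme enzyme, at 5.95, 6.47 and 101 CPM against 3.72, 5.25, 4.15 and 2.64 CPM. Without pool 3 the log2 changes of Hbb-bs, Hba-a1 and Alas2 were 0.39, 0.45 and 0.65 (edgeR, adjusted p = 0.49, 0.45 and 0.15). All 5 calls were also lost with voom, with the deposited log2 values and with the 7 libraries alone, whereas DESeq2 kept 1, and 3, 2 and 3 passed without control pools 1, 3 and 4.

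Adipocyte markers rose in 5 of 8, at summed levels of 62.6 to 400.1 CPM in the controls and 505 to 619 CPM in the progerin pools. Adipoq, adiponectin, was at 12.8, 4.91, 10.3 and 38.1 CPM and 76.8, 59.4 and 73.4 CPM, with control pool 4 the highest control, and the lipid droplet protein Plin1 rose from 7.68 ± 3.8 to 28.1 ± 10.5 CPM. The count fell to 3 without a filter, without control pool 2 or 3, or without VSMC progerin pool 1 or 2. It fell to 2 without control pool 1 or VSMC progerin pool 3, and to 1 with the 7 libraries alone. The part of blood cells, leukocytes, fat and adventitia in the results of the other lists was not tested. Without VSMC progerin pool 3 the log2 changes of Eln, Col1a1, Itgam and Myh11 were 2.03, 4.65, 3.72 and -1.91, against 2.05, 4.57, 3.67 and -1.88 with it.

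**Figure D5:**
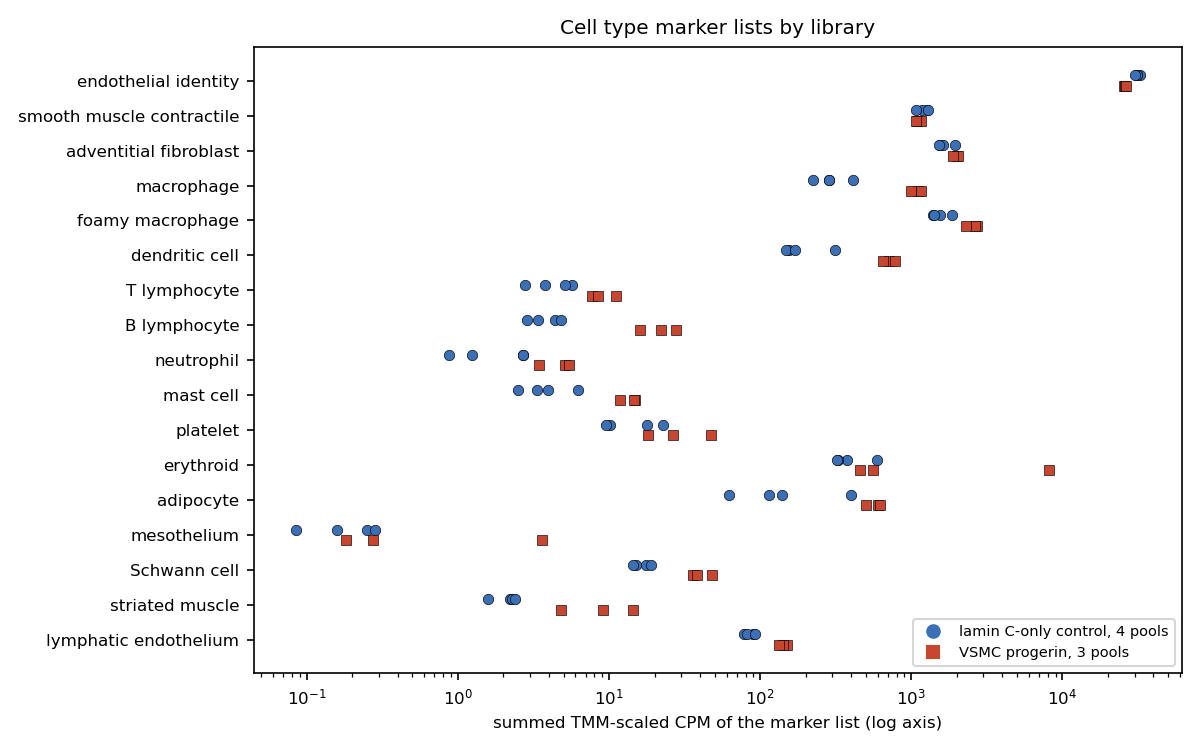
Summed CPM of each cell type marker list on a log axis, 1 point per pool. The sums are per library total, and the TMM scaling named on the axis was not applied. Macrophage, foamy macrophage, dendritic cell, T and B lymphocyte, neutrophil and mast cell sums are higher in every VSMC progerin pool than in every control pool. So are the adipocyte, Schwann cell, striated muscle and lymphatic endothelial sums. The dendritic cell list includes the MHC class II invariant chain. VSMC progerin pool 3 alone has an erythroid sum above the other 6 libraries by more than 10 times.

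Cell cycle and replication genes rose in 12 and fell in 1 of 25 (median 0.86). The mitotic genes Top2a, topoisomerase II alpha, and Ccna2, cyclin A2, were at 5.31, 4.26, 6.83 and 5.91 CPM and 3.604, 1.77, 3.25 and 3.95 CPM in the controls. In VSMC progerin they were at 22.4, 20.5 and 20.99 CPM and 10.3, 10.6 and 12.2 CPM, without overlap. The member that fell was Ccnd1, cyclin D1 (-0.49 ± 0.10), and Pcna, a replication clamp, was not called (0.12 ± 0.08, adjusted p = 0.24).

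Targets of p53 and genes of growth arrest were divided, with 7 of 18 higher and 5 lower (median -0.04). Pmaip1, a pro-death BCL2 family member, rose from 1.82 ± 0.35 to 9.91 ± 0.3 CPM, and so did Cdkn1a, the cell cycle inhibitor p21, from 59.1 ± 13.1 to 135 ± 31.8 CPM (a gene chosen after its values were seen). Sesn1, a stress-induced inhibitor of mTORC1, and Plk2, a polo-like kinase, fell from 64.6 ± 5.7 to 33.4 ± 1.7 CPM and from 105 ± 11.97 to 43.4 ± 4.5 CPM. These last had changes of 1.97 and 1.66 under ubiquitous progerin, so that the effects differed by -2.92 ± 0.12 and -2.93 ± 0.14 (adjusted p = 4e-13 and 4.9e-11).

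All 13 mitochondrially encoded genes rose, by a median of 1.65, and the values lay between 1.54 for mt-Nd2 and 1.71 for mt-Atp8. mt-Nd6, a complex I subunit, was at 701, 647, 670.3 and 778 CPM in the controls and 2233, 2112 and 2219 CPM in the progerin pools. Nuclear genes of oxidative phosphorylation did not follow: 5 of 25 rose and 2 fell (median 0.04), with Ndufa1 at 0.56 ± 0.10 and Sdha at -0.27 ± 0.06. Without control pool 4, 10 rose. Only 1 fell with RLE scaling, with the 7 libraries alone, without the mitochondrial genes, or without control pool 4 or VSMC progerin pool 1 or 2. Cytosolic ribosomal protein genes fell in 12 of 23 and the others did not pass (median -0.16), with Rpl4 at -0.34 ± 0.06, values that are uncertain because pseudogenes share their reads.

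Glycolysis genes rose in 4 and fell in 7 of 19 (median -0.05), with hexokinase 2, Hk2, rising from 1.81 ± 0.82 to 8.57 ± 3.7 CPM and Gpi1 falling by 0.42. Cholesterol synthesis genes fell in 6 and rose in 1 of 21 (median -0.09; the rise was lost without control pool 1 or 2, and 2 rose with voom, with the deposited values, or without control pool 4 or VSMC progerin pool 3). Insig1, which holds back the transcription factor SREBP, fell from 74.7 ± 2.6 to 33.3 ± 7.0 CPM, and the enzymes Idi1 and Lss by 1.20 and 1.10. Genes of lipoprotein uptake and cholesterol efflux rose in 10 and fell in 4 of 20 (median 0.31). Msr1, a scavenger receptor of macrophages, rose from 1.38 ± 0.57 to 13.4 ± 1.8 CPM and lipoprotein lipase, Lpl, from 78.8 ± 15.9 to 303 ± 42.3 CPM, whereas Vldlr and Scarb2, both membrane receptors, fell by 1.13 and 0.54.

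Antioxidant and oxidase genes rose in 11 and fell in 2 of 20 (median 0.30; 1 fell with the 7 libraries alone). Heme oxygenase 1, Hmox1, rose by 1.55 ± 0.17. Genes of endoplasmic reticulum stress rose in 7 and fell in 3 of 21 (median 0.09). The folding enzyme Pdia4 rose by 0.34 ± 0.05, while Trib3, a pseudokinase induced by this stress, fell from 38.2 ± 3.0 to 13.9 ± 3.3 CPM.

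The circadian clock list had the lowest median of the 50 pathway lists, at -0.69: 12 of 18 genes fell and 2 rose (1 without VSMC progerin pool 2). Tef, an output factor of the clock (ENSMUSG00000022389, chromosome 15, 81802421 to 81826863), was at 544, 584, 545 and 612 CPM in the controls and 154, 182 and 295 CPM in the progerin pools. Nr1d1, the repressor REV-ERB alpha, was at 255, 286, 254 and 268 CPM and 98.2, 95.9 and 128 CPM, and Per1, a core repressor chosen after its values were seen, at 179, 168, 169 and 180.0 CPM and 93.9, 101 and 137 CPM. Progerin pool 3 was the closest to the controls for these 3 genes, and no groups overlapped. Cry2 fell by 0.87. The rises were in the repressor Bhlhe40 (0.47 ± 0.09) and in Arntl, the activator BMAL1 (0.44 ± 0.14), the latter not called without VSMC progerin pool 2 (0.29, adjusted p = 0.12). Per1 had a change of 1.50 ± 0.11 under ubiquitous progerin (difference -2.15 ± 0.15, adjusted p = 1.8e-08). The sources used here do not give the time of day of collection.

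The E-box, at which clock activators bind, was searched for as CACGTG on both strands of the 250 bases before the start. Of the 18 clock genes 16 had a promoter in the table and 5 held the motif, against 6.86% of the 27025 genes, and among the 12 called genes with a promoter 3 held it. The matches in Tef and Per1 are shown in capitals, since both genes fell.
Tef (chr15:81811231-81811326, plus strand): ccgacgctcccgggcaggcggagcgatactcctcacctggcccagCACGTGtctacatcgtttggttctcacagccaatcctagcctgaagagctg
Per1 (chr11:69098738-69098833, plus strand): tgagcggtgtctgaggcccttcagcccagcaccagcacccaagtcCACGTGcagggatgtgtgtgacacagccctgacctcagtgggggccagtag
The transcript starts that the table uses lie inside both genes as annotated, 8993 bases from the 5′ end of Tef and 3732 bases from that of Per1. No annotated exon overlaps these windows, and a match does not show binding.

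Glucocorticoid targets rose in 5 and fell in 4 of 15 (median -0.07). The kinase Sgk1 fell from 271 ± 3.8 to 152 ± 21.6 CPM and the transcription factor Zbtb16 from 70.5 ± 4.1 to 32.6 ± 9.8 CPM, while the metal-binding gene Mt1 rose by 1.04 ± 0.10. Sgk1 and Zbtb16 had changes of 0.97 and 1.46 under ubiquitous progerin, differences of -1.80 ± 0.11 and -2.57 ± 0.21.

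Sialic acid genes rose in 8 and fell in 7 of 22 (median -0.03), with Cmah the largest change. Cmas, which makes the substrate of the Cmah enzyme, fell from 170.0 ± 12.5 to 102 ± 7.4 CPM, and the sialyltransferase St3gal4 rose by 0.84 ± 0.07. Insulin-like growth factor genes rose in 2 and fell in 3 of 11 (median -0.08). The ligand Igf1 was at 1.31, 3.89, 2.11 and 3.003 CPM in the controls and 38.9, 35.4 and 28.7 CPM in the progerin pools, its receptor Igf1r at 89.2, 77.4, 88.0 and 79.3 CPM and 30.6, 35.4 and 44.1 CPM. Ligand and receptor moved in opposite directions with no overlap (3.74 ± 0.23 and -1.19 ± 0.10), and the binding protein Igfbp4 rose by 1.55 ± 0.13.

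Wnt signalling genes rose in 6 (3 without VSMC progerin pool 2) and fell in 5 of 24 (median 0.19). The ligand Wnt2b fell from 10.2 ± 1.3 to 1.56 ± 0.49 CPM, and Wnt9b was at 0.363, 0.559, 0.244 and 0.153 CPM in the controls and 15.5, 5.78 and 3.75 CPM in the progerin pools, with pool 1 well above the others. The receptor Fzd4 fell by 0.84. PDGF and FGF ligands, receptors and targets rose in 6 and fell in 5 of 19 (median 0.47), and the feedback inhibitors parted, as Spry2 fell by 1.65 and Dusp6 rose by 0.82 ± 0.11.

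Osteochondrogenic and calcification genes rose in 7 and fell in 2 of 16 (median 0.55; 1 fell with the 7 libraries alone). The cartilage matrix gene Chad was at 6.57, 6.74, 7.103 and 6.59 CPM in the controls and 85.1, 87.6 and 97.2 CPM in the progerin pools, and Comp rose from 1.48 ± 1.2 to 15.5 ± 0.38 CPM. Mgp, an inhibitor of calcification, rose from 1880.2 ± 84.8 to 3875 ± 251 CPM. Nt5e, which makes adenosine outside the cell, fell from 277 ± 57.4 to 169.7 ± 55.7 CPM, a fall not called with the 7 libraries alone (-0.67, adjusted p = 0.11).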

How the data were processed

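RNA was measured in 14 libraries of aortic intima, and the 7 of lamin C-only control and VSMC progerin are described here. The deposited estimated counts came from RSEM 1.2.28 after STAR 2.7.10b, cutadapt 4.1 and Trim Galore 0.6.10 on build GRCm38, and the deposited log2 values from limma, per the submitters' processing notes. The strand setting and annotation release were not given in the sources used here. Genes that overlap or share reads with copies (globin, H2 and ribosomal protein genes among them) are uncertain, because RSEM divides such reads by a model.

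Estimated counts were rounded, filtered with edgeR's filterByExpr (minimum count 10, total 15, proportion 0.7), scaled by TMM and tested with edgeR 4.0.16 (R 4.3.3; quasi-likelihood, robust) in 1 fit of all 14 libraries. The SE was taken as the absolute log2 change over the root of the F statistic. The steps were tested on simulated counts. Limma 3.58.1, DESeq2 1.42.0, the deposited log2 values, other filters and scalings and each pool left out were the alternatives.

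The 67 gene lists (17 of cell type markers, 50 of pathways) and the members described were chosen with earlier results of these data known, so no list gives independent support and no set test was run. Named genes are Lmna, Apoe and Tagln, the 10 rises and 10 falls with the largest log2 change among called genes at a mean log2 CPM of 2 or more, no overlap between groups and no predicted-gene symbol, and, from each list, up to 4 called members per direction with the smallest p and up to 2 uncalled members with the highest level. Exceptions are marked. Not every gene that the rule takes is named. Positions are from GENCODE M21, which matched 22311 of the 22430 identifiers. Mx1, Mx2 and Xist were left out and are not analysed here.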

Additional observations from a re-analysis of the deposited data

Results flagged for a closer look

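Of 210 genes named, 17 had a control pool whose gap to the nearest other pool was large for the spread of the 4, a rule that chance meets in about 1 in 20 groups. Lamin C-only control pool 4 stood high for Col3a1 (89.3 CPM), Dcn (295.7 CPM), Hk2 (3.03 CPM), Igfbp4 (300.2 CPM) and Comp (3.31 CPM). It stood low for Nos3 (998.0 CPM), Junb (47.0 CPM) and Atp1b3 (139.8 CPM). Control pool 2 stood high for Hes1 (33.9 CPM), Nppc (0.124 CPM), Hbb-bs (247.7 CPM), Bhlhe40 (86.4 CPM) and Nt5e (363.1 CPM). Control pool 1 stood high for Col4a3 (248.6 CPM), Efnb2 (509.4 CPM) and Fzd4 (722.2 CPM), and control pool 3 for Thbs2 (4.12 CPM). Groups of 3 pools were not looked at in this way.

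The VSMC progerin and ubiquitous progerin effects differed by test for 17 of the 20 genes of largest change, which were chosen for the VSMC progerin change that enters this test. The log2 difference, VSMC progerin minus ubiquitous progerin, was 6.60 for Cmah, 4.49 for St14, 4.21 for Col1a1, 3.90 for Postn, 2.82 for Lrg1, 2.30 for Bcan, 2.26 for Hp and 0.79 for C4b. It was -4.62 for Fmo2, -3.49 for Fmo1, -2.94 for Atp1b1, -2.75 for Otogl, -2.62 for Adam33, -2.42 for Tfcp2l1, -1.99 for Gdf6, -1.99 for Slc26a4 and -1.50 for Acpp.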

How the results depend on the processing

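Across 16 alternative settings the 210 genes named gave 3356 values, of which 3317 kept the direction and the side of the threshold. Another 29 lost a call, 2 gained one, and 8 turned in sign, all in genes that were not called. Cdh5 turned to 0.0090 with RLE scaling, 0.00993 with the 7 libraries alone, 0.0065 without the mitochondrial genes, 0.0120 without control pool 1, 0.016 without VSMC progerin pool 1 and 0.0090 with DESeq2. With single pools left out, Cdh5 ranged from -0.052 to 0.016 and Dcn from -0.45 to 0.15, the last without control pool 4. Dcn turned to 0.19 (adjusted p = 0.038 by edgeR) with the replicate block, in which control pool 4 has no weight either. The genes called with an absolute log2 change of at least 1 went from 1287 higher and 402 lower to 607 and 130 when glmTreat tested against that minimum. Leaving out 1 pool at a time, the mitochondrial share differed by 7.59 to 7.95 percentage points. Those designs cannot reach the threshold, since the smallest p they allow is 0.0667 or 0.1. The share of calls that were higher ran from 43.0% to 51.6% over the settings, against 45.2%.

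The pool numbers did not pair the samples, since the correlations of same-numbered pools' deviations were -0.040, 0.023 and -0.0098, and only VSMC progerin pool 2 correlated best with its own number. With the pool number as a block in the 7 libraries, 5164 genes were called, 2666 higher and 2498 lower, against 5504 for the 7 libraries without it. Number 4 occurs only among the controls, so the block also takes control pool 4 out of the comparison. Shifts under the block cannot be told apart from the loss of that pool. The blocked fit did not call Fmo2 (-2.89), Ccn2 (-1.27), Vim (-0.14), Edn1 (-0.77), Mmp12 (3.20) or Trem2 (2.12), whose log2 changes were -2.88, -1.37, -0.20, -0.82, 3.30 and 2.15 without it in all 14 libraries. Nor did it call Hbb-bs, Hba-a1 or Alas2. Under the block 5 foamy macrophage, 4 MHC class II and 12 nuclear oxidative phosphorylation genes were higher, and 5 TGF-beta and 3 mesenchymal transition genes were lower, and Ccn2 was no longer among the matricellular falls.

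Depth was close among the libraries. Genes near 1 CPM or below, among them the lymphocyte, neutrophil, mast cell and striated muscle markers, rest on the fewest counts in the controls.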
